A study of Mus musculus with 14 samples.

Results

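The stem cell transcription factors followed here are 7 transcriptional regulators, Hlf, Mecom, Meis1, Mllt3, Gata2, Tal1 and Lmo2, in single haematopoietic stem cells (HSCs) of the mouse. They were chosen by name, and all 7 were found among the 25832 genes of the 4 count tables, each under 1 gene ID and listed in 4 of 4 tables. The cells came from bone marrow depleted of lineage-positive cells and carried the sort label CD150-positive CD48-negative. They were profiled by MARS-Seq, which sorts cells into plates and tags each captured molecule with a unique molecular identifier (UMI). Cell names in each table begin with KO or WT, 96 wells of each per plate on plates 350W, 351W, 352W and 353W. The KO cells are taken here as cells of mice lacking Phf19, a Polycomb-associated protein, because the series defines KO in that way. The labels do not tie the WT cells to the floxed controls (FF) of the other assays, nor say how the allele was deleted, the age of the mice, or whether plates came from separate animals. P-values for KO against WT cells therefore measure that difference against its spread between these plates, which may be technical. P-values for differences between plates are set against the disagreement of KO and WT cells within plates. Those cells share a plate, so these p-values do not tell how far repeat plates would differ. KO cells lay in wells 97 to 192 and WT cells in wells 1 to 96 of every plate, so genotype and well range cannot be told apart.

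As background, HLF is a PAR-type basic leucine zipper factor, MECOM (EVI1) a zinc finger factor, MEIS1 a TALE homeodomain partner of PBX and HOX proteins, and MLLT3 (AF9) a chromatin reader of the elongation machinery; all are known for their part in HSC maintenance. GATA2, the basic helix-loop-helix factor TAL1 and the LIM-only protein LMO2 belong to a multiprotein complex on blood cell enhancers, in which LMO2 binds no DNA itself and bridges TAL1 and GATA factors through LDB1. Hlf and Mecom are also known to decline as stem cells differentiate.

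Of 768 wells, 716 had at least 500 UMIs and were kept as cells. The 8 sets of cells, 1 per plate and genotype, held 74 to 96 cells and 220821 to 510791 UMIs. KO cells were shallower, with medians of 2230 to 4483.5 UMIs per cell against 2920 to 5006 in WT cells, and 49 KO against 3 WT wells were left out. Among defining markers, Kit and Ly6a were present in every set, whereas Slamf1, which encodes CD150, ranged from 0 to 16.0 CPM in KO sets and from 0 to 40.6 CPM in WT sets. Cd48 was at 222 CPM in KO and 195 CPM in WT cells of 352W. CPM is the gene's UMI count scaled to a common total, the usual CPM scale.

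Hlf, Mecom, Meis1 and Mllt3 were detected in every set, with levels that ranged from 45.3 to 406 CPM in KO cells and from 64.6 to 372 CPM in WT cells. Hlf had 406, 281, 158 and 170 CPM in KO cells (350W, then 351W, 352W and 353W), against 372, 287, 208 and 221 CPM in WT cells. Both genotypes were highest in 350W, and the KO and WT ranges overlapped. Mecom, whose product is a zinc finger regulator, had 180, 122, 86.0 and 133 CPM in KO cells of those plates, against 218, 170, 104 and 125 CPM in WT cells. Both genotypes were highest in 350W and lowest in 352W, and the KO and WT ranges overlapped.

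Meis1 had 104, 122, 353 and 94.2 CPM in KO cells of the 4 plates in that order, against 154, 142, 343 and 94.0 CPM in WT cells. Plate 352W stood apart from the others in both genotypes, and it was there that Hlf and Mecom were lowest. Mllt3 had 180, 195, 45.3 and 52.3 CPM in KO cells, against 131, 124, 66.1 and 64.6 CPM in WT cells. The KO value was above the WT value in 350W and 351W and below it in 352W and 353W. Both genotypes had higher Mllt3 in the first 2 plates than in the other two.

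Among the components of the enhancer complex, Gata2 had the widest range. It had 207, 109, 36.2 and 62.8 CPM in KO cells of 350W, 351W, 352W and 353W, against 292, 101, 22.0 and 76.4 CPM in WT cells. The KO and WT values of each plate lay apart from those of every other plate, in the order 350W, 351W, 353W and 352W, and the mean of 350W was 8.57 times that of 352W. In 352W the Gata2 level came from 8 UMIs in KO and 7 UMIs in WT cells. Tal1 gave the fewest UMIs of the 7, with 13, 20, 3 and 21 UMIs in KO cells and 6, 24, 4 and 14 UMIs in WT cells. These counts correspond to 58.6, 64.0, 13.6 and 54.9 CPM in KO cells, against 19.2, 60.9, 12.6 and 27.4 CPM in WT cells. Tal1 too was lowest in 352W. Lmo2 gave the most UMIs, with 316, 627, 503 and 458 CPM in KO cells, against 436, 710, 538 and 484 CPM in WT cells. It was lowest in 350W, the plate in which Hlf, Mecom and Gata2 were highest. No protein-coding gene overlaps any of the 7 in RefSeq, but noncoding genes overlap all except Hlf, and reads of overlapping genes may not be told apart. Capture can differ between genes, so the order of the genes is one of UMIs captured.

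**Figure D1:**
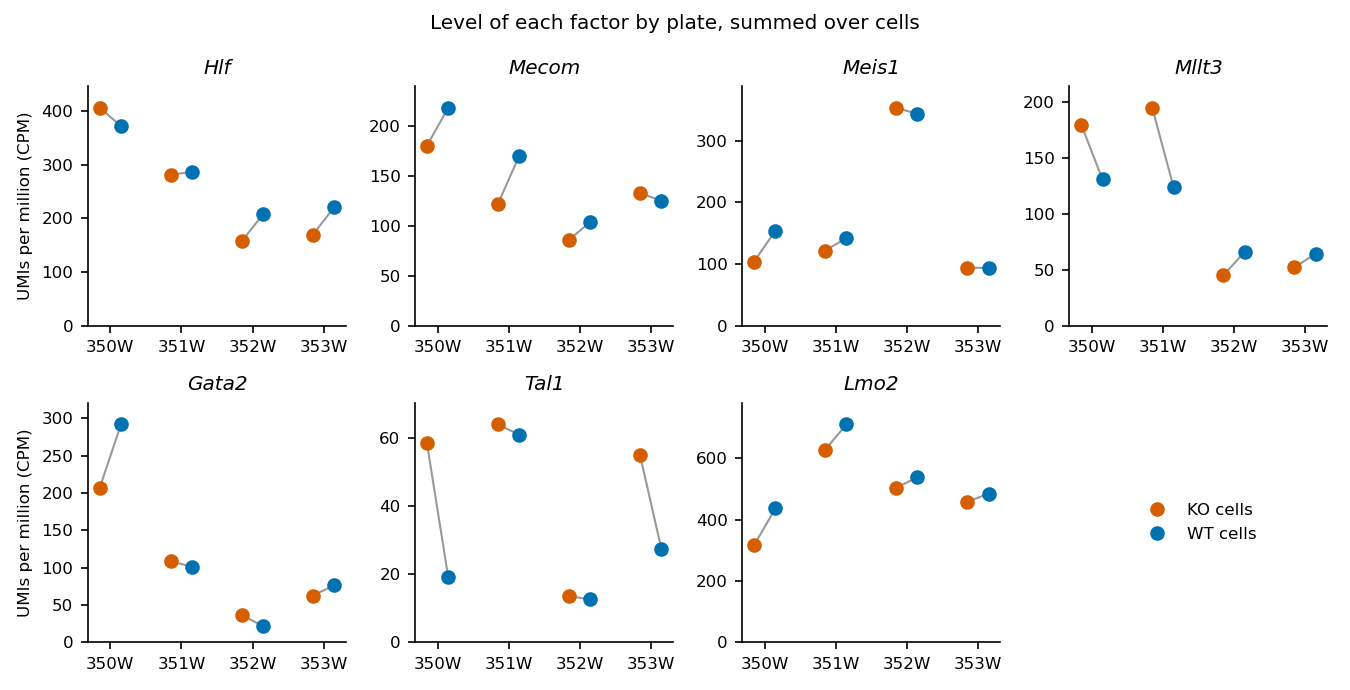
Level of each factor in CPM (vertical axis from 0) on plates 350W to 353W, with KO cells (orange) left of WT cells (blue) and a grey line joining the pair of a plate; each point is a sum over 74 to 96 cells. Meis1 peaks in 352W at 353 CPM in KO and 343 CPM in WT cells, where Gata2 is lowest at 36.2 CPM in KO and 22.0 CPM in WT cells.

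The first comparison asked whether the factors differed between plates beyond the spread left after genotype. In edgeR's quasi-likelihood F test over the 3 plate coefficients, 5 of 7 factors passed at a Benjamini-Hochberg adjusted p below 0.05, beside 27.3% of the 6541 genes tested. The edgeR adjusted p was 3.79e-06 for Meis1, 1.13e-05 for Gata2, 0.00166 for Hlf, 0.00184 for Lmo2 and 0.00215 for Mllt3. It was 0.0565 for Mecom and 0.0735 for Tal1. With DESeq2, 3 of 7 passed beside 11.1% of genes, with adjusted p of 7.29e-06 for Meis1, 7.55e-06 for Gata2 and 0.0371 for Mllt3, while Hlf had 0.138 and Lmo2 0.268. Without 352W the edgeR adjusted p for Meis1 was 0.293, and without 350W that for Hlf was 0.0857, so each of these calls rested on that plate.

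The order of plates differed between the factors. For Gata2 no neighbouring plates overlapped in its order, and the same held for Lmo2, in the order 351W, 352W, 353W and 350W. For Hlf, 350W and 351W lay apart from what followed, whereas 353W and 352W overlapped. For Mllt3, 351W overlapped with 350W and 353W with 352W, and the gap fell between these pairs. The ratio of the highest to the lowest plate was 2.12 for Hlf, 2.10 for Mecom, 3.70 for Meis1, 2.87 for Mllt3, 4.77 for Tal1 and 1.78 for Lmo2, on means of KO and WT CPM.

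Sequences before the start sites are given as context, with no link to the plate differences tested. RefSeq (GRCm38.p6) entries matched 6 of the 7 genes, with 10 start sites. In the 250 bases before each, both strands were searched for 6 short motifs. The GATA motif AGATAA was in 1 of 10 entries, against 9.99% of 32851 promoters of all genes, and the MEIS motif TGACAG in 2 of 10, against 15.9%. The ETS motif AGGAAGT and the PAR zipper motif TTACGTAA were in 0 of 10, against 7.69% and 0.113%. The E-box CANNTG was in 5 of 10, against 66.2%, and CCAAT in 5 of 10, against 33.8%. A match is a string of letters and not a shown binding site. The 3 windows with a GATA or MEIS match are printed 5′ to 3′ on the strand of the gene with the match in capitals, followed by both windows of Gata2, the factor with the widest range, which hold neither.
Tal1 (chr4:115056176-115056425, plus strand): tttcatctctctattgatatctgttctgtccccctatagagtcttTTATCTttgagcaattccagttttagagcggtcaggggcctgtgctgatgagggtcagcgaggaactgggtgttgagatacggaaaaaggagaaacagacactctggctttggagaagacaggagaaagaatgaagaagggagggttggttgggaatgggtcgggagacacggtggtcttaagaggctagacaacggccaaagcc
Mecom (chr3:30013205-30013454, minus strand): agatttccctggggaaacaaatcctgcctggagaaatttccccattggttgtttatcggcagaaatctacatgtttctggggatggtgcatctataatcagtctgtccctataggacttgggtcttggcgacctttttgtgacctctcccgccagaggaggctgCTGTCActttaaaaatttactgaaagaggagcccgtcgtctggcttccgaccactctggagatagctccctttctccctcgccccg
Mllt3 (chr4:87806324-87806573, minus strand): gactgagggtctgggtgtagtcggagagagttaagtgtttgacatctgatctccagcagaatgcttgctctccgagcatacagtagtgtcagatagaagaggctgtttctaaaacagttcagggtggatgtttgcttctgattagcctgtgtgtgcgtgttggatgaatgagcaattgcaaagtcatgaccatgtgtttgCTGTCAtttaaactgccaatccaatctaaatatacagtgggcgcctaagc
Gata2 upstream start (chr6:88193641-88193890, plus strand): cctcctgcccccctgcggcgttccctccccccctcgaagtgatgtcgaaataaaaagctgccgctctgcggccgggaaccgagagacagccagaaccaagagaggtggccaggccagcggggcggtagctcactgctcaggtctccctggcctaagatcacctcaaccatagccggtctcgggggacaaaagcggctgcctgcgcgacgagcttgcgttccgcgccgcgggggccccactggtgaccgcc
Gata2 downstream start (chr6:88198414-88198663, plus strand): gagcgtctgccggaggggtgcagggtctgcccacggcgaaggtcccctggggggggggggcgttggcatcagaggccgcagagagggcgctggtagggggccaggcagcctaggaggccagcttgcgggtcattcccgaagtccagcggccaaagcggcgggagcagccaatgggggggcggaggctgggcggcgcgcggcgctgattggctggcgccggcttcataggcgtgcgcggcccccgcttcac
The Gata2 windows held 22 and 24 CpG dinucleotides at 67.2% and 74.0% GC. Of the other printed windows, that of Tal1 had 6 CpG and 48.8% GC, Mecom 8 CpG, and Mllt3 4 CpG and 45.2% GC. Each of these genes had another start site with more CpG, at 16 for Tal1, 14 for Mecom and 23 for Mllt3. The Hlf window held 26 CpG and the Meis1 window 13 CpG. The median over all promoters was 6 CpG and 52.4% GC.

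Markers of later progenitors and of other cells moved with the plates as well. Flt3, the FLT3 ligand receptor of early progenitors, had 18.0, 6.40, 367 and 154 CPM in KO cells and 0, 30.4, 368 and 170 CPM in WT cells of 350W to 353W. Together with Cd48 it summed to 6.40 to 589 CPM in KO sets and 0 to 563 CPM in WT sets, with both genes detected in every set of 352W and 353W. The 8 lymphoid and B cell markers, 7 of which were in the tables, summed to 63.1 to 5018 CPM in KO and 73.7 to 7281 CPM in WT sets. Of these sums Ighm made up 4773 CPM in KO and 7092 CPM in WT cells of 352W. Dntt was highest in 353W, at 429 CPM in KO and 421 CPM in WT cells. Rag1 and Cd79a were at 0 in 350W and 351W, with at most 3 UMIs in any set. Cd79b was instead highest in 351W, at 83.2 CPM in KO and 66.0 CPM in WT cells, and Ebf1 was not called between plates (edgeR adjusted p = 0.719). Megakaryocyte markers summed to 67.9 to 613 CPM in KO and 47.2 to 725 CPM in WT sets, highest in 350W. Vwf made up 478 CPM in KO and 532 CPM in WT cells of that plate. Pf4 and Gp9 were also highest in 350W, whereas Gp1bb and Ppbp were at 0 there. Itga2b was lowest in 350W in KO cells, at 22.6 CPM against 62.8 CPM in 353W, but highest in 350W in WT cells, at 54.5 CPM. The edgeR adjusted p between plates was 8.06e-10 for Vwf, 0.0803 for Gp9 and 0.315 for Itga2b. The 8 neutrophil and monocyte markers summed to 266 to 693 CPM in KO and 324 to 749 CPM in WT sets, with Mpo, Ctsg, Elane and Cebpa at 0 in 350W and 351W. Elane was also at 0 in 353W and in KO cells of 352W. Csf3r was instead highest in 351W, at 256 CPM in KO and 343 CPM in WT cells, and at most 29.4 CPM on any other plate. Prtn3 and Lyz2 were detected in every set, with edgeR adjusted p between plates of 0.0644 for Prtn3 and 0.466 for Lyz2. The part of these markers in the plate differences was not tested. In such sums, fewer cells of a type and less RNA per cell cannot be told apart.

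The second comparison asked whether loss of Phf19 went with a change in the factors, plate by plate. No difference passed the test: edgeR's quasi-likelihood test with the plate as a block called 0 of 7, beside 0.0917% of the 6541 genes (0.0306% higher and 0.0612% lower in KO cells). At an unadjusted p below 0.05, edgeR had 0 of 7 factors beside 6.08% of genes. DESeq2 called 0 of 7 beside 0.0153% of genes, and had 0 of 7 beside 0.963% at an unadjusted p below 0.05. The median log2 fold change of KO over WT was -0.14 for the 7 factors and -0.004 for all tested genes. The estimate was negative for 5 of them and positive for Mllt3 and Tal1.

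Lmo2 had the narrowest interval, at -0.19 on the log2 scale with an SE of 0.103, an approximate 95% interval of -0.39 to 0.01 and an edgeR adjusted p of 0.838. Its CPM was lower in KO cells in 4 of 4 plates, which was so for 7.75% of tested genes, at 476 ± 128 CPM in KO and 542 ± 120 CPM in WT cells (SD, n = 4 plates each). Tal1 had the largest estimate, 0.69 (SE 0.364, edgeR adjusted p = 0.827), with an interval of -0.02 to 1.40 that reflects its 57 UMIs in KO and 48 UMIs in WT cells. Its CPM was higher in KO cells in 4 of 4 plates, as for 7.83% of tested genes, with single-plate log2 ratios of 1.61, 0.07, 0.11 and 1.0 in 350W to 353W. Neither gene's KO and WT levels were free of overlap across plates, a separation that 1.42% of tested genes showed.

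For the other factors the estimates lay closer to 0 relative to their error. The log2 fold change was -0.14 for Hlf (SE 0.137), -0.22 for Mecom (SE 0.178), -0.14 for Meis1 (SE 0.166), 0.21 for Mllt3 (SE 0.230) and -0.16 for Gata2 (SE 0.219), with edgeR adjusted p of 0.878 to 0.954. The approximate 95% intervals were -0.40 to 0.13 for Hlf, -0.57 to 0.13 for Mecom, -0.47 to 0.18 for Meis1, -0.24 to 0.66 for Mllt3 and -0.59 to 0.27 for Gata2. Gata2 was lower in KO cells of 350W and 353W and higher in those of 351W and 352W, with log2 ratios of -0.49, 0.10, 0.72 and -0.28 in plate order. Mllt3 had log2 ratios of 0.46, 0.65, -0.55 and -0.30, and without 351W its fitted value was -0.01. Without 350W the fitted value for Gata2 was 0.05. The direction of both therefore depended on single plates. Fitted on cells thinned to 1500 UMIs, by 1 draw, the log2 fold change was -0.37 for Lmo2, -0.37 for Meis1, -0.47 for Gata2, -0.08 for Hlf and -0.01 for Mecom. Without 350W it was -0.11 for Lmo2, -0.03 for Meis1, -0.23 for Hlf and 0.46 for Tal1. Without 353W it was -0.05 for Hlf and -0.35 for Mecom, without 351W -0.12 for Mecom, and without 352W -0.07 for Hlf, -0.23 for Meis1 and 0.36 for Mllt3. None of these passed the edgeR test.

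**Figure D2:**
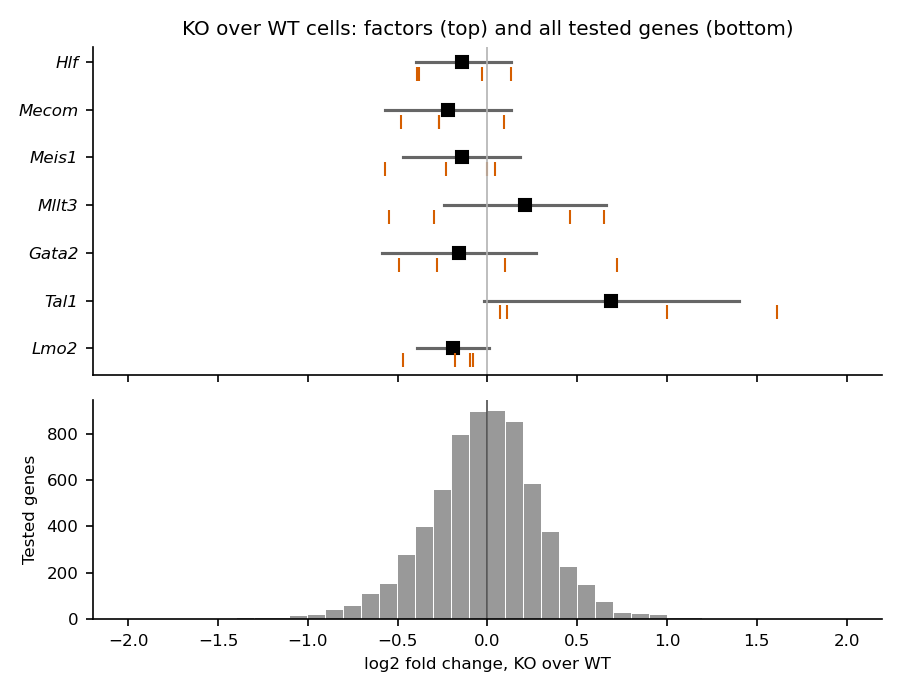
Upper panel: log2 fold change of KO over WT cells for each factor (squares, edgeR with the plate as a block), approximate 95% intervals (lines) and the log2 CPM ratio of each plate (orange ticks). Lower panel: the same estimate for all 6541 tested genes in bins of 0.1, values beyond 2 placed in the end bins; every factor's interval includes 0.

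The share of cells with at least 1 UMI was read after thinning every cell to 1500 UMIs, because KO cells were shallower. This left out 28 KO and 5 WT cells and kept 307 KO and 376 WT cells. Lmo2 had a UMI in 40.1 ± 7.41% of KO and 48.6 ± 8.67% of WT cells, and Meis1 in 15.8 ± 6.37% of KO and 22.9 ± 15.6% of WT cells (SD, n = 4 plates each). Both shares were lower in KO cells in 4 of 4 plates, with mean differences of -8.49 points for Lmo2 and -7.09 points for Meis1. These values come from 1 random draw of UMIs per cell. Without the draw, as the expected share over all draws, an alternative chosen after seeing the data, the difference was -6.72 points for Lmo2 and -2.62 points for Meis1, lower in KO cells in 4 of 4 plates for each. In 352W the expected Meis1 share was 35.0% in KO and 37.7% in WT cells, where the draw had given 25.0% in KO and 45.7% in WT cells. Without 352W the drawn difference for Meis1 was -2.54 points, and a draw of 1000 UMIs gave -0.962 points, with 29.4% of KO and 22.1% of WT cells in 352W, so the size of the Meis1 difference rested on the draw and on that plate. An exact two-sided sign-flip permutation test over plates gave p = 0.13 for each, which is the smallest p that 4 plates allow. After Benjamini-Hochberg adjustment over the 7 factors, this test gave 0.438 for each. How many of all genes had a lower share in KO cells in 4 of 4 plates was not counted. The CPM of Meis1 was lower in KO cells in 2 of 4 plates. Without thinning the shares were 60.3% in KO and 72.7% in WT cells for Lmo2, and 29.8% in KO and 38.6% in WT cells for Meis1.

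The other 5 factors differed by -2.06 to 0.879 points in the draw of 1500 UMIs, with an exact permutation p of at least 0.50. Hlf was found in 29.0 ± 11.2% of KO and 28.4 ± 9.18% of WT cells, Mecom in 15.8 ± 5.16% of KO and 16.5 ± 4.35% of WT cells, and Mllt3 in 12.9 ± 7.65% of KO and 13.5 ± 4.82% of WT cells. Gata2 was found in 13.4 ± 8.50% of KO and 15.4 ± 11.7% of WT cells, and Tal1 in 5.39 ± 1.72% of KO and 4.51 ± 3.02% of WT cells (SD, n = 4 plates each). The T cell genes Cd3e, Cd3d, Cd3g and Cd4, which stem cells should lack, were in at most 1.32% of thinned cells of a set. Without thinning they reached 4.21%, and Tal1 in 352W, at 4.05% of KO cells (3 of 74, exact 95% Clopper-Pearson interval 0.844 to 11.4%) and 4.21% of WT cells (4 of 95, 1.16 to 10.4%), did not exceed that highest value. In 352W itself the 4 genes were at 0 in KO cells and reached 3.16% of WT cells, for Cd3g, within the Tal1 intervals. The median depth was 2552.5 UMIs in KO and 2920 UMIs in WT cells of 352W, against 5006 UMIs in the WT cells of 353W that gave 4.21%. These intervals cover counting error only.

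Molecules of each factor were gathered in fewer cells than independent sampling at each cell's depth would give. Hlf was found in 344 of 716 cells, where a Poisson draw with the set's CPM gave 413.5, a ratio of 0.832. The ratio was 0.870 for Mecom, 0.818 for Meis1, 0.820 for Mllt3, 0.779 for Gata2, 0.682 for Tal1 and 0.858 for Lmo2. The median of all tested genes was 0.875, with a 5th to 95th percentile range of 0.660 to 1.02, so none of the 7 lay outside what most genes showed. A single cell held up to 13 UMIs of Lmo2 and 9 of Hlf.

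**Figure D3:**
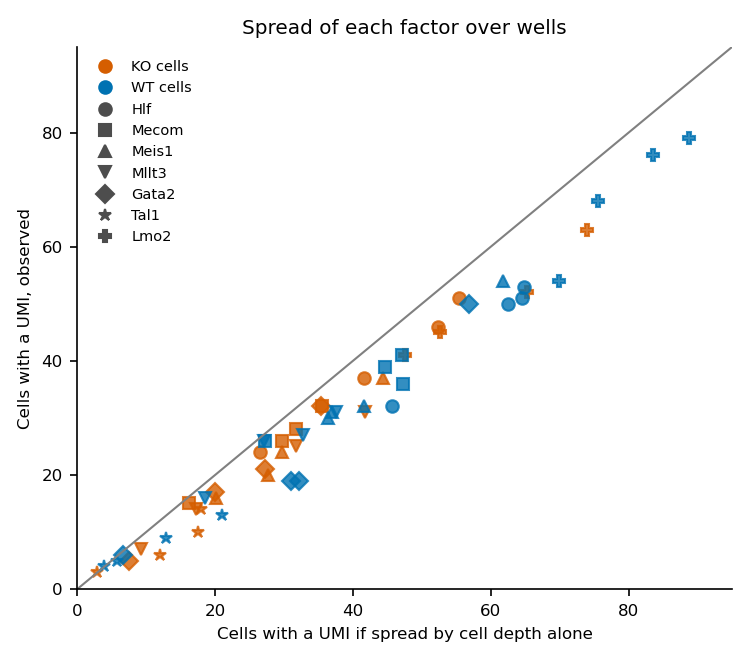
Number of cells with at least 1 UMI (vertical axis) against the number a Poisson draw gives at each cell's depth (horizontal axis); each point is 1 factor (shape) in 1 of 8 sets, KO orange and WT blue, and the line marks equality. Summed over sets, observed counts lie below the Poisson number for each of the 7 factors, from a ratio of 0.682 for Tal1 to 0.870 for Mecom.

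Within plates, the average correlation of pairs of factors from cell to cell lay near 0. Pearson's r was computed for the 21 pairs in each of the 8 sets over cells thinned to 1500 UMIs and averaged. It is given as a description, because the cells of a set share a plate and library. The averages ran from -0.082 for Mecom and Meis1 to 0.084 for Hlf and Gata2, with a median of -0.009, and over all alternatives from -0.098 to 0.129. For Hlf and Gata2 the value was above 0 in 4 of 8 sets and ranged from -0.100 to 0.378. Tal1 and Lmo2, partners in the enhancer complex, had a mean r of 0.077, above 0 in 7 of 8 sets, and shared 21 cells, where the product of their shares gave 15.6. Hlf and Mecom had a mean r of -0.065, at 0.009 in KO and -0.139 in WT cells, and shared 26 cells, where the product gave 34.5; at 1000 UMIs the mean r was 0.047. For Hlf and Lmo2 the mean was 0.118 in KO and -0.029 in WT cells. The mean r of a factor with all tested genes had a median of -0.0044 to -0.0014. Over genes with a UMI in at least 5% of cells of every set, its 95th percentile was 0.061 to 0.070. The means of Hlf and Gata2, Tal1 and Lmo2, and Hlf and Tal1 (0.072) lay above that range, and those of the other pairs did not. At 1000 UMIs these 3 were 0.078, 0.073 and -0.016. Correlations this weak in sparse counts are no finding.

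**Figure D4:**
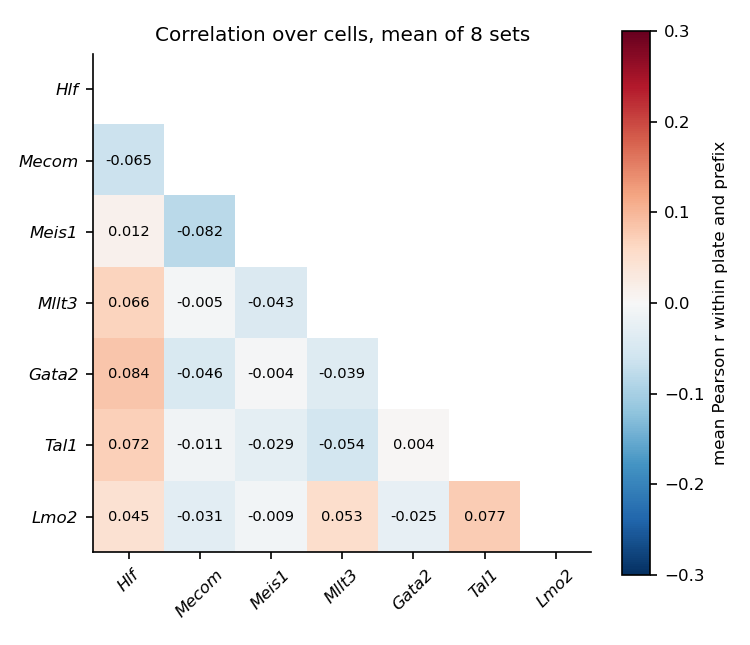
Pearson's r between pairs of factors within plates, averaged over 8 sets of KO or WT cells thinned to 1500 UMIs; colour runs from blue (below 0) to red (above 0). The averages run from -0.082 to 0.084.

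The genes nearest to each factor by the same measure, among those with a UMI in at least 5% of cells of every set, had mean r from 0.127 to 0.253, as the highest of many genes. Lmo2 was nearest to 4931422A03Rik, with a mean r of 0.253, above 0 in 8 of 8 sets and ranging from 0.163 to 0.385. That gene is the next protein-coding gene on the higher-coordinate side of Lmo2 in RefSeq. With the cells of all plates and both genotypes pooled, a Lmo2 UMI was found in 82 of 121 cells with a UMI of 4931422A03Rik (67.8%). It was found in 224 of 562 cells without one (39.9%). Differences between sets enter these pooled shares. Whether reads of the 2 neighbours can be told apart by the counting was not tested. The second gene for Lmo2 was Ano2 (0.145). For Hlf the nearest were Hsd17b4 (0.164) and Lst1 (0.146), for Mecom Fam122c (0.131) and Gm2189 (0.127), and for Meis1 Gm7290 (0.146) and Canx (0.138). For Mllt3 they were Gm37424 (0.190) and Pde4b (0.145), for Gata2 Vkorc1 (0.144) and Selenow (0.135), and for Tal1 Mrpl17 (0.201) and Rnf114 (0.15). The value for Gm37424 was above 0 in 5 of 8 sets and ranged from -0.098 to 0.691. Those for Mrpl17 (-0.072 to 0.544), Rnf114 (-0.059 to 0.617), Vkorc1 (-0.076 to 0.419) and Ano2 were above 0 in 6 of 8 sets. Lst1 and Fam122c were above 0 in 8 of 8 sets, and the rest in 7.

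Counted per cell at 1500 UMIs, the mean number of factors detected was 1.58, 1.51, 1.12 and 1.08 in KO cells of 350W, 351W, 352W and 353W, against 1.69, 1.63, 1.52 and 1.15 in WT cells. The KO mean was the lower one on every plate, although the ranges over plates overlapped. Averaged over all draws the means were 1.57, 1.58, 1.20 and 1.11 in KO cells, against 1.69, 1.61, 1.37 and 1.24 in WT cells. The lower KO mean came mostly from Lmo2, whose expected share differed by -6.72 points. That difference was -2.62 points for Meis1, -1.88 for Mecom, -1.12 for Gata2, -0.587 for Hlf, -0.0503 for Mllt3 and 1.43 for Tal1. How other genes compare in this count was not examined. Cells with none of the 7 made up 19.0, 16.9, 31.2 and 34.2% of KO cells, against 7.45, 14.7, 16.0 and 24.7% of WT cells. Over all draws the expected shares were 17.3, 13.3, 24.7 and 29.1% of KO cells, against 12.6, 12.0, 18.4 and 23.2% of WT cells. The highest number in a cell was 5, in 1 WT cell of 351W. Summed over the 7 factors, the level was 1452, 1519, 1196 and 1025 CPM in KO cells, against 1622, 1596, 1294 and 1092 CPM in WT cells. These sums give no test, since the genes were chosen with results of these data known.

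**Figure D5:**
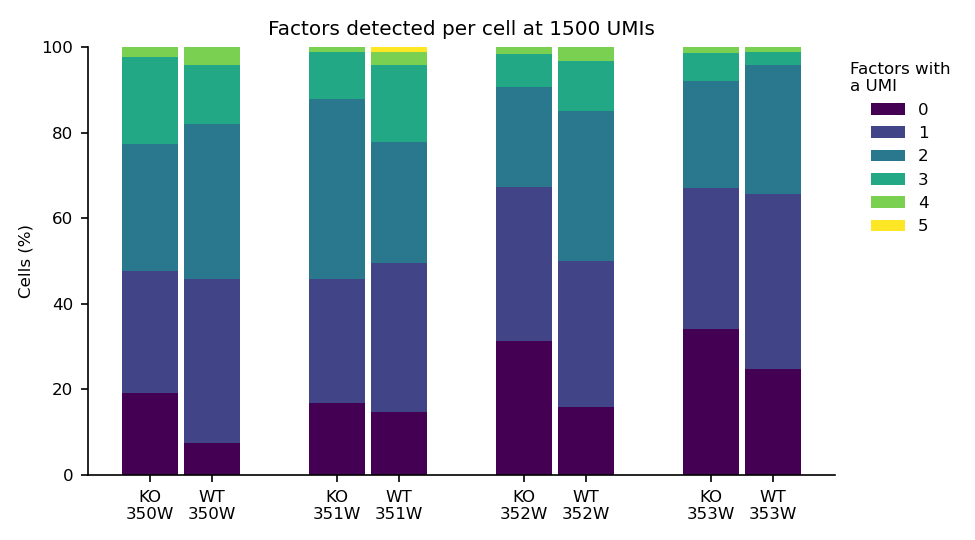
Number of the 7 factors with at least 1 UMI per cell at 1500 UMIs, as stacked shares of cells in percent (vertical axis), with KO left of WT for each plate. Cells with none range from 16.9% to 34.2% in KO sets and from 7.45% to 24.7% in WT sets.

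Partners, relatives and targets of the factors were counted from 8 lists. Of their 64 distinct genes 44 were tested. Between KO and WT cells edgeR called 0, beside 0.0917% of all genes tested, and 1 had an unadjusted p below 0.05, beside 6.08%. Between plates 16 of the 44 were called, beside 27.3% of all genes. Of the 14 complex partners 12 were tested, and Tcf3, Runx1, Erg and Spi1 were called between plates. Tcf4, an E protein partner of TAL1, had 387 ± 94.4 CPM in KO and 446 ± 83.9 CPM in WT cells (SD, n = 4 plates each). The gene under the unadjusted threshold was Cbfa2t3 (ETO2), a corepressor of the complex, named after its values were seen. It had 194, 240, 67.9 and 162 CPM in KO cells against 125, 109, 85.0 and 125 CPM in WT cells, which edgeR fitted as 0.56 on the log2 scale with an SE of 0.206 and an adjusted p of 0.721.

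Runx1, a core-binding factor, had 172 ± 120 CPM in KO and 178 ± 89.0 CPM in WT cells, and Erg, an ETS factor, 180 ± 111 CPM in KO and 170 ± 74.2 CPM in WT cells (SD, n = 4 plates each). Runx1 was highest in 353W, at 351 CPM in KO and 307 CPM in WT cells, and Erg in 351W, at 342 CPM in KO and 282 CPM in WT cells, with edgeR adjusted p between plates of 5.36e-05 for Runx1 and 2.61e-04 for Erg. Of the 8 MEIS1 partners 5 were tested, and the homeobox gene Hoxa9 was among those called between plates. Pbx3, a cofactor that was not called, had 89.1 ± 18.3 CPM in KO and 102 ± 16.4 CPM in WT cells (SD, n = 4 plates each). Of the 12 MLLT3 elongation partners 6 were tested, with Mllt10 and Kmt2a called. Aff1 stood at 124 ± 28.5 CPM in KO and 148 ± 14.7 CPM in WT cells, and Aff4 at 132 ± 20.9 CPM in KO and 133 ± 21.7 CPM in WT cells (SD, n = 4 plates each). Dbp, a PAR zipper relative of Hlf and the 1 of 3 tested, had 66.7 ± 83.6 CPM in KO and 91.0 ± 130 CPM in WT cells and an edgeR adjusted p between plates of 2.58e-07. It was at 190 CPM in KO and 286 CPM in WT cells of 352W and at most 36.1 CPM in any other set. Prdm16, the relative of Mecom, was called among 3 tested, while the corepressors Ctbp1, with 67.1 ± 20.7 CPM in KO and 73.1 ± 14.6 CPM in WT cells, and Ctbp2, with 36.8 ± 17.6 CPM in KO and 54.0 ± 15.4 CPM in WT cells, were not (SD, n = 4 plates each). Of the GATA family and cofactors, edgeR called 0 of the 3 tested, which were Zfpm2, Zfpm1 and Gata3. Of the 10 reported targets 7 were tested, with Myb, Nfe2 and Bcl2 among those called, while Kit stood at 226 ± 28.8 CPM in KO and 234 ± 27.2 CPM in WT cells (SD, n = 4 plates each). Among 17 other stem cell factors 13 were tested, and Prdm16, Etv6, Myb, Egr1, Runx1 and Erg were called between plates.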

How the data were processed

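MARS-Seq UMI counts per gene and well were deposited by the authors as 1 table per plate. The submitters' processing notes name GRCm38.p4 and FastQC; for the aligner, counter and strand use, the sources used here give nothing. Genotype was read from the KO or WT start of each cell name. Gene IDs were matched to symbols for 25714 of 25832 IDs. Wells of at least 500 UMIs were kept, without a doublet caller, and no well had the same counts as another. Sums of counts over the cells of 1 plate and 1 genotype were tested in edgeR 4.0.16 (R 4.3.3) with TMM, its filter on low counts, a quasi-likelihood fit of genotype with the plate as a block, and Benjamini-Hochberg adjustment; KO and WT cells of a number share the plate and its table, which is the source of the pairing. DESeq2 1.42.0 was the alternative. The SE of a log2 fold change is its size divided by the square root of F, and the 95% intervals are approximate. Shares and correlations were computed in Python 3.11.15 with scipy 1.17.1 after thinning to 1500 UMIs by 1 random draw; the exact expected share over all draws was added after seeing the data. The tests were tested on simulated data. The members and gene lists were chosen with earlier results of these data known. Named are the 7 factors, of each partner list the genes called and the 3 with the highest mean CPM, and for each factor the 2 genes with the highest mean correlation; some genes of the partner lists are not reported here. The bulk RNA-seq, ATAC-seq and H3K27me3 data were not analysed here.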

Additional observations from a re-analysis of the deposited data

Results flagged for a closer look

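Meis1 stood at 353 CPM in KO cells of plate 352W, far above the other 3 plates: the gap to the next plate was 0.894 of the whole range, over Dixon's critical value for 4 samples. Of 28 groups examined this was 1, and chance flags about 1 in 20. WT cells of that plate were at 343 CPM.

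The 52 wells of under 500 UMIs, which entered no comparison, held 40 UMIs of the 7 factors, more than the limit of 3 set by finding none. Lmo2 had 20 UMIs there and Meis1 12 UMIs. Lmo2 was at 1215 CPM in the wells left out and 519 CPM in the cells kept, and Meis1 at 729 CPM in the wells left out and 163 CPM in the cells kept. Of the 12 Meis1 UMIs, 11 were in plate 352W, and 10 of the 20 Lmo2 UMIs were in 351W.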

How the results depend on the processing

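Across 13 alternatives edgeR or DESeq2 called 0 of the 7 factors between KO and WT cells. The number of all genes called, 6 in the reported fit, was 1 with DESeq2, 26 with no filter on low counts, 3 with no minimum of UMIs, 2 without wells of over 100 immunoglobulin UMIs, 2 after thinning and 2 to 12 when 1 plate was left out. With no replicate block, that is without the pairing by plate, it was 0. Between plates, 1783 genes were called, against 725 with DESeq2, 2810 with no filter and 689 after thinning, and DESeq2 called 3 in place of 5 factors. Over all alternatives the log2 fold change ran from -0.23 to -0.05 for Hlf, from -0.35 to -0.01 for Mecom, from -0.37 to -0.03 for Meis1, from -0.37 to -0.11 for Lmo2 and from 0.46 to 0.76 for Tal1. With 1 plate left out, it ran from -0.27 to 0.05 for Gata2, positive without 350W, and from -0.01 to 0.36 for Mllt3, negative without 351W. The Tal1 fold change could not be tested after thinning or without 351W, where its counts fell under the filter. The plate call was gained for Mecom without 351W (edgeR adjusted p = 0.0374) and for Tal1 without 350W (0.0442), and for both with library totals (0.0310 and 0.0426). The difference in share turned to -2.36 points for Hlf without thinning and to 0.978 points for Mllt3 at 1000 UMIs. With the expected share over all draws, chosen after seeing the data, it turned to -0.587 points for Hlf at 1500 UMIs, and at 1000 UMIs to -0.821 points for Hlf and 0.670 points for Mllt3. Without thinning it was -7.28 points for Mecom. With 1 plate left out it ran from -1.24 to 2.36 points for Hlf, from -1.72 to 0.648 points for Mecom, from -3.23 to 0.735 points for Mllt3, from -9.38 to -2.54 points for Meis1, from -3.27 to -0.0477 points for Gata2 and from -0.103 to 1.57 points for Tal1. The mean r of Mecom and Meis1 was -0.004 at 1000 UMIs, and the other 167 alternative correlations moved by less than their spread. The causes were not tested. Depth limits Tal1 most, with 3 UMIs in KO and 4 UMIs in WT cells of 352W.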
